A study of Mus musculus with 16 samples.

Results

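Pregnancy was compared as a main effect on lung gene expression, over both exposures of a 2-by-2 study of female BALB/c mice, an inbred laboratory strain. All 16 samples of the study entered, 8 from pregnant and 8 from non-pregnant mice, and the fit carried the exposure as a covariate. Of the 8 pregnant samples 4 came after phosphate-buffered saline (PBS) and 4 after 50 ug of titanium dioxide (TiO2) particles in PBS. The 8 non-pregnant samples were divided in the same way. Every mouse, controls included, had fluid placed in the nose under light halothane, so no group was untreated. Pregnant mice were at gestation day 14, and total lung RNA was taken 19 hours after the dose. The labels give no age, and they do not say whether a sample is 1 lung or a pool, so the p-values measure the spread between these samples. The design asks whether a pregnant lung answers inert particles differently, and the main effect is the pregnancy difference shared by both exposures. RNA was read on 1-colour Affymetrix mouse arrays, 1 array per sample, and levels are log2(intensity + 16) after quantile normalization between arrays. A difference is pregnant minus non-pregnant in these log2 units, and the added 16 makes changes of dim genes look smaller.

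Pregnancy in mammals is accompanied by a rise of neutrophils and monocytes in blood and by a shift of clotting towards readiness for birth. The lung holds a large standing pool of neutrophils within its capillaries, and megakaryocytes shed platelets there, so a lung RNA sample carries the transcripts of blood cells as well as those of airway, alveolar, vessel and connective tissue cells. In such bulk RNA a change in the number of cells of one type and a change in RNA per cell cannot be told apart.

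The samples were lung, but not only lung. On all 16 arrays the surfactant gene Sftpc lay between 13.15 and 13.49 log2, the club cell gene Scgb1a1 between 13.44 and 13.55, the alveolar type 1 gene Ager between 13.04 and 13.30 and the endothelial cadherin Cdh5 between 10.70 and 11.55. One label conflict touches the comparison: for non-pregnant PBS replicate 2 one field reads pregnant and another non-pregnant. In the sample list printed in the labels the chip letters give the same group as the other fields for 15 of 15 other samples, and non-pregnant PBS for this one, so it was kept there. In the fit without it, 349 of the 441 genes called had a value on that array nearer to the mean of the other non-pregnant arrays. Lymph node tissue also varied: its venule mucin gene Glycam1 was near the floor on 3 arrays (4.14 to 4.6 log2; replicates 1 and 4 of the non-pregnant TiO2 group, replicate 2 of the pregnant TiO2 group) and at 8.06 to 10.76 on the other 13. That pregnant array was also low in the squamous keratin Krt13 and the muscle actin Acta1 (5.21 and 6.56, against at least 10.71 and 11.86), and non-pregnant PBS replicates 3 and 4 carried a thymic transcript, Prss16, at 8.98 and 9.72 log2 against at most 6.32 elsewhere. The signal of 18S ribosomal RNA ran from 77.2 through a median of 177 to 589 on non-pregnant arrays and from 47.5 through 78.2 to 166 on pregnant arrays, as deposited intensity. It was lower in pregnant lungs with overlap between the groups, and its part in the results was not tested beyond the fits with it as a covariate given below.

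**Figure D1:**
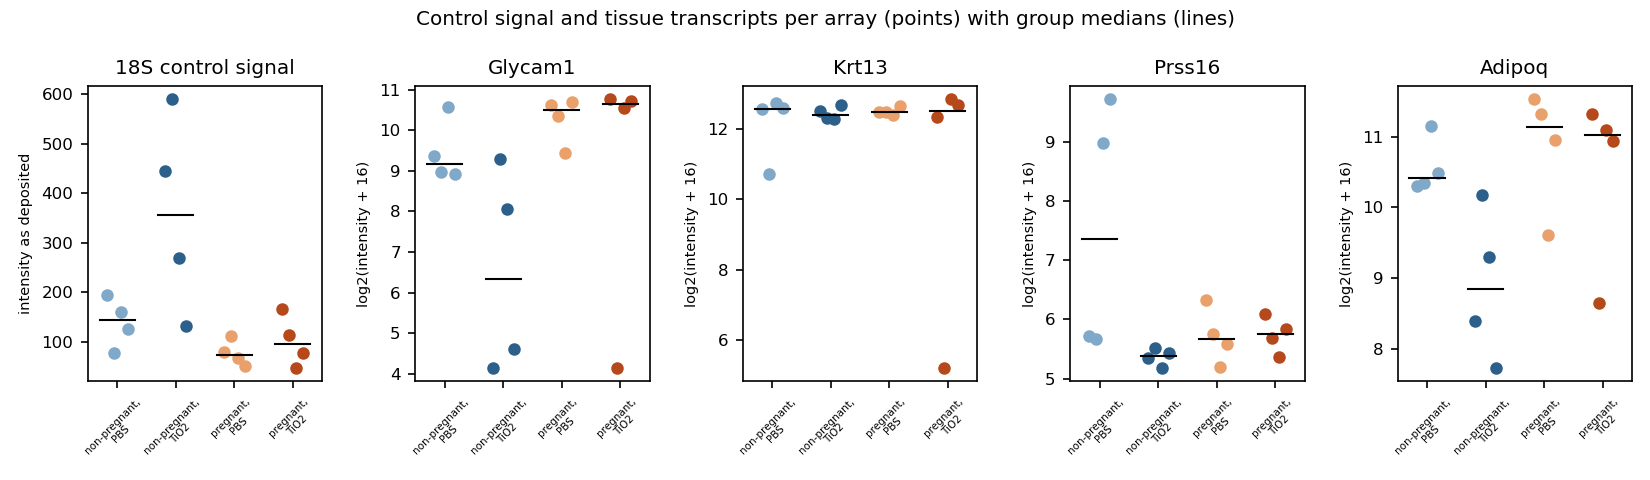
Signal of the 18S control probe sets (intensity as deposited) and log2 level of Glycam1, Krt13, Prss16 and Adipoq on each of the 16 arrays, by group, with group medians as lines. The 3 arrays with Glycam1 under 5 log2, the single array low in Krt13 and the pair of arrays with high Prss16 stand apart from their groups.

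Between pregnant and non-pregnant lungs 521 of 12369 genes (4.21%) were called by limma at a Benjamini-Hochberg adjusted p under 0.05, which is the meaning of called throughout. Pregnant lungs were higher in 380 of them (3.07% of all genes) and lower in 141 (1.14%). Among the gene lists examined, those of neutrophils, platelets and pattern receptors held the most rises, and those of matrix and chaperones the most falls. The 54 lists share members, with 1654 entries for 1450 distinct genes, so a gene can count in several lists. The median change of a called gene was 0.41 log2 in size, and 23 rose and 3 fell by more than 2-fold. Those 3, named after their values were seen, were Ddit4, Fam107a and Cyp26b1. Over all genes tested the median difference was 0.01 log2 and 53.9% of differences were positive.

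For 90 genes (0.728%) all 8 pregnant arrays lay on one side of all 8 non-pregnant arrays, 67 of them above (0.542%) and 23 below (0.186%). All but 2 of the 90 were also called, 65 higher and 23 lower. The exceptions, Cxcl17 (0.52 log2, adjusted p = 0.0636) and Mta3 (0.17, adjusted p = 0.0512), separated the arrays without passing limma's threshold. The border of this set is narrow: for Cfap52, just inside, the highest non-pregnant value was 6.57 and the lowest pregnant value 6.59, and for Plek, just outside, they were 9.25 and 9.21. All 88 had the same sign after PBS and after TiO2, which separation of all 8 from all 8 fixes in advance. Because separation was read from the same arrays as the differences, the sizes given for these genes describe these mice and are not a second line of evidence.

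Leaving out 1 array moved the number of called genes between 352 and 867, the highest without non-pregnant PBS replicate 3, which carries thymic transcripts. With values as deposited, unscaled, 91 genes were called and 81 of them (89%) were higher, against 72.9% higher in the scaled values, and with 18S as a covariate 92 were called. Counting the array with conflicting labels as pregnant PBS left 95 calls. All 521 genes kept their direction in each of these fits, and 15 of them passed the threshold in all 38 alternatives run, namely Alox12, Ccl9, Cd177, Cd33, Chil3, Clec1b, Clec4e, Emilin2, Il1b, Lrg1, Nr4a1, Pla2g7, S100a9, Wfdc17 and Wfdc21 (the list was read off after the fits).

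**Figure D2:**
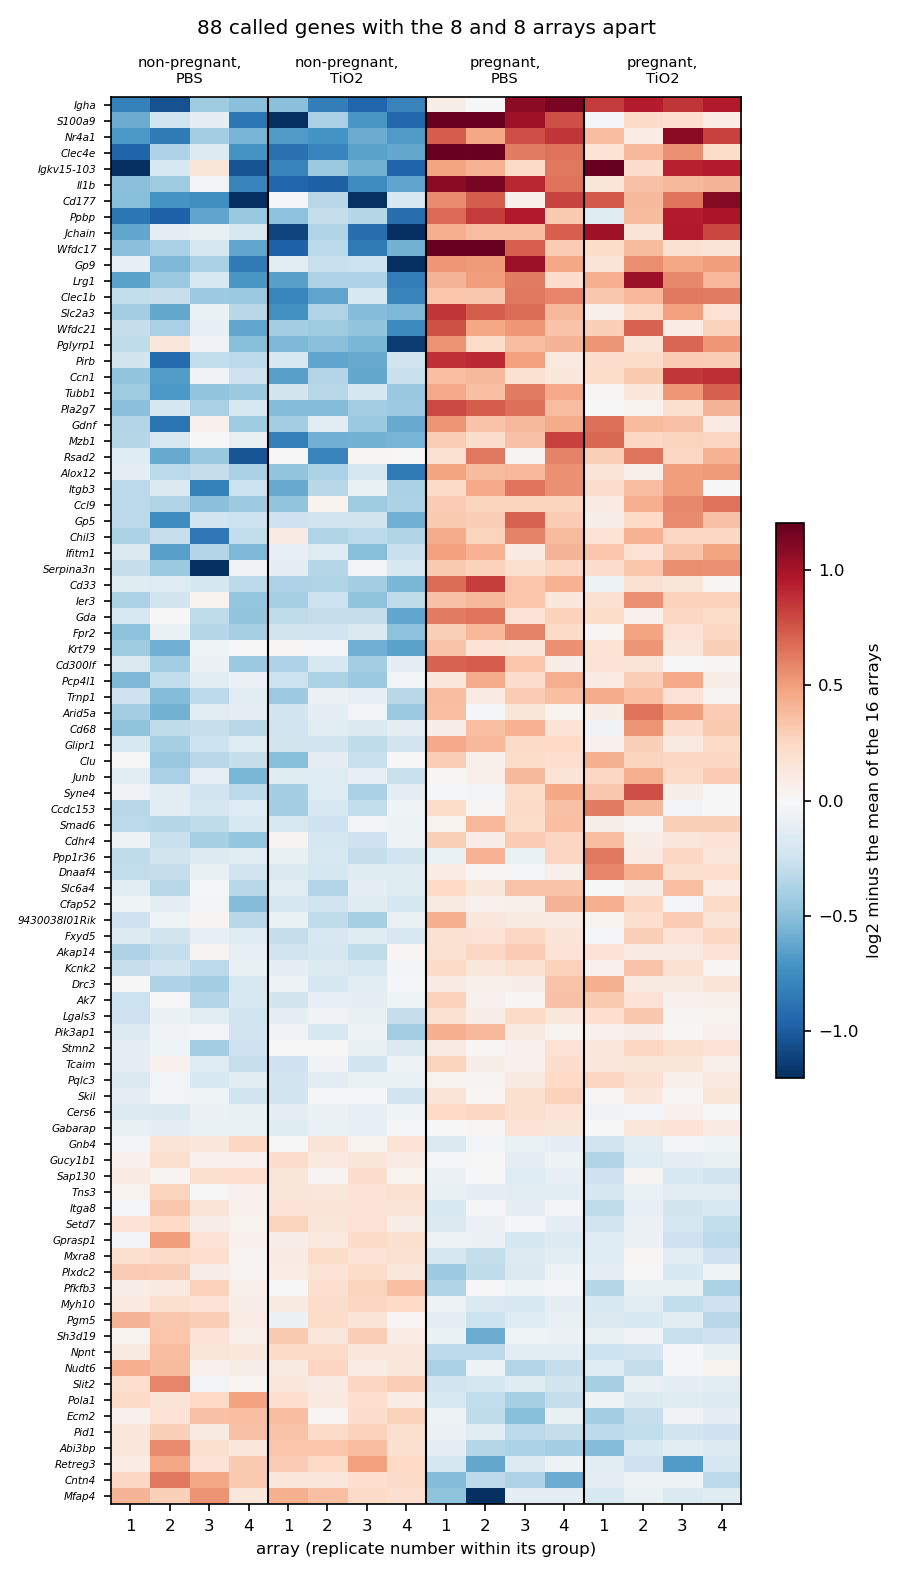
Log2 level of the 88 called genes whose pregnant and non-pregnant arrays do not overlap, each gene centred on its mean over the 16 arrays, with genes in order of their difference and arrays in their 4 groups. The upper 65 genes are higher and the lower 23 are lower in pregnant lungs after both exposures, which their selection fixes in advance. Steps are larger among the rises than among the falls.

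Neutrophil genes rose in both of the larger neutrophil lists. Of 17 measured genes of the specific and gelatinase granules 9 rose and 0 fell (median of the list 0.58 log2), and of 39 genes of the neutrophil cytosol and surface 21 rose and 0 fell (median 0.46), where 3.07% of all genes rose. Neutrophils are short-lived phagocytes made in the marrow, and their granule proteins are made at successive steps there. Of the primary (azurophil) granule list 1 of 9 genes, Serpinb1a, passed the expression filter. It was at 0.04 ± 0.13 log2 (limma adjusted p = 0.894), with its other kept probe set at 0.26, and 1 gene does not speak for that list.

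S100a9, with S100a8 a subunit of the calcium-binding protein calprotectin, ran from 9.57 through a median of 10.32 to 10.85 on non-pregnant arrays and from 10.95 through a median of 11.47 to 12.44 on pregnant arrays. All 8 pregnant values lay above all 8 non-pregnant ones, a rise of 1.31 ± 0.17 log2 (SE, n = 8 and 8; limma adjusted p = 0.000301). Its partner S100a8 ran from 10.18 through a median of 10.73 to 11.19 without pregnancy and from 10.92 through a median of 11.74 to 12.64 with it. The S100a8 ranges overlapped, and the rise was 1.05 ± 0.17 (limma adjusted p = 0.00257). The surface protein Cd177, which marks a subset of neutrophils and binds platelet endothelial adhesion molecule, ran from 6.00 through a median of 6.73 to 7.33 and from 7.40 through a median of 8.03 to 8.44. No pregnant array fell within the non-pregnant range of Cd177, and it rose by 2.39-fold (1.26 ± 0.17 log2, limma adjusted p = 0.000661).

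Transcripts of antimicrobial granule proteins were among the rises. Pglyrp1, a peptidoglycan-binding protein, ran from 7.45 through a median of 8.08 to 8.72 on non-pregnant arrays and from 8.74 through a median of 9.06 to 9.29 on pregnant ones, and its arrays did not overlap (0.86 ± 0.13, adjusted p = 0.00157). Wfdc21, a whey acidic protein domain inhibitor of the granules, rose by 0.87 ± 0.10 log2 and did not overlap either. Chil3, a chitinase-like lectin of neutrophils and macrophages, rose by 0.69 ± 0.10, from a non-pregnant median of 10.70 to a pregnant median of 11.37. The 8 members that did not pass included Lyz2, a lysozyme (0.01 ± 0.05), Hp, haptoglobin (0.07 ± 0.06), Ngp, neutrophilic granule protein (0.53 ± 0.29), and Camp, the cathelicidin precursor (0.32 ± 0.20). Summed over the list, the signal was 24300 to 28070 intensity units on non-pregnant arrays and 30070 to 33380 on pregnant arrays, with no overlap. Such a sum is weighted to the brightest members, among them Lyz2 and Hp, and some members, such as Chil3, are not particular to neutrophils. The mean log2 level, in which each gene counts alike, was 8.89 to 9.19 on non-pregnant and 9.32 to 9.74 on pregnant arrays.

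Il1b, the precursor of the fever-inducing cytokine interleukin 1 beta, had the smallest adjusted p of all genes (1.18e-05). It ran from 7.27 through a median of 7.56 to 8.22 in non-pregnant lungs and from 8.40 through a median of 8.78 to 9.39 in pregnant lungs. Every pregnant array was above every non-pregnant one, and the rise was 2.41-fold (1.27 ± 0.10 log2). Clec4e, the receptor Mincle for mycobacterial glycolipid and for material from dead cells, ran from 5.37 through a median of 5.65 to 6.16 and from 6.50 through a median of 6.91 to 7.72, again with no overlap (1.29 ± 0.14, limma adjusted p = 8.40e-05). Fewer than 4 of its non-pregnant arrays were above the filter's cut. Clec4e thus passed through its pregnant arrays, which limits what its separation shows. Of 24 measured genes of interleukin 1 signalling and the inflammasome 6 rose, against 3.07% of all genes, and 0 fell (median 0.21). Beside Il1b they included Casp1, the protease that matures it (0.51 ± 0.12), Il1a (0.38 ± 0.08) and Il18rap, a chain of the interleukin 18 receptor (0.46 ± 0.10), and for these 3 the ranges overlapped. With values as deposited, or with 18S as a covariate, 1 of the 24 was called.

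Some receptors for microbial patterns and for leukocyte traffic rose as well. Of 27 pattern receptor genes 11 rose and 0 fell (median 0.28), where 3.07% of all genes rose. Among the 11 were Fpr2, a receptor of formylated peptides (0.61 ± 0.08, no overlap), Clec7a, the fungal glucan receptor dectin-1 (0.53 ± 0.08), and Clec4a3, a myeloid lectin (0.61 ± 0.09). Clec4e, Clec4d, Fpr2 and Pglyrp1 are among the 11 and were already counted in the neutrophil lists. Of 29 adhesion and traffic genes 7 rose and 0 fell (median 0.24), with the chemokine receptors Ccr1 (0.71 ± 0.12) and Ccr2 (0.76 ± 0.16) and the selectin ligand Selplg (0.49 ± 0.09). Fpr2 and Itgam, also among these 7, are neutrophil list members too. Setting aside the 5 arrays named above for Glycam1, Krt13 or Prss16 left 6 of 17 granule genes and 20 of 39 cytosol and surface genes higher. With 18S as a covariate 4 and 14 rose, and with the conflicting array counted as pregnant 4 and 11.

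The start-site sequences of S100a9 and Il1b are shown because both genes rose without overlap, and because C/EBP factors are the regulators by which granulocyte genes are commonly known. The 250 bases before each RefSeq start are taken from the C57BL/6J assembly GRCm38.p6, not from the BALB/c mice studied, and capitals mark TTNNGNAA, a loose form of the C/EBP site, on either strand (a match on the other strand is capitalised as its complement). The S100a9 stretch is chr3:90695722-90695971 on the minus strand, with 2 matches, and the Il1b stretch is chr2:129371140-129371389 on the minus strand, with 1.
S100a9: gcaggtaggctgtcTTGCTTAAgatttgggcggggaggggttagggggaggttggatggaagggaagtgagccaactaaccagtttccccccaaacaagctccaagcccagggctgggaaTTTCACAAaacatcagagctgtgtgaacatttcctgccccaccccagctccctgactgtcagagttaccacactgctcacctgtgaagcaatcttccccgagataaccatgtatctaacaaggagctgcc
Il1b: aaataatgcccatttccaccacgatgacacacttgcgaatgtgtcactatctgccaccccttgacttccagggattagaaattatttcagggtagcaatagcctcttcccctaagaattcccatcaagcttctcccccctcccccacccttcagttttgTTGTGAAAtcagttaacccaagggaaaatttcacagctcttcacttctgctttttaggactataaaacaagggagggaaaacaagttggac
The marked matches do not overlap each other. The letters occurred in 36.9% of 27025 promoters of this length and in 28.5% of those of the genes tested, in 13 of 18 promoters found for the neutrophil cytosol and surface genes that rose, in 42.4% of 304 for all genes that rose and in 19.8% of 111 for genes that fell. A match is a description of the sequence and does not show that a factor binds there.

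Most of the measured platelet genes rose. Of 27 measured genes of platelets and megakaryocytes 17 rose and 0 fell (median 0.51), and for 7 of them the arrays did not overlap. Over all genes 3.07% rose, and 0.542% had all pregnant arrays above all non-pregnant ones. Platelets carry RNA from the megakaryocyte that shed them, so these transcripts do not tell platelet from megakaryocyte. Nor are all of them particular to these cells, since Pf4 is also in the interstitial macrophage list below. Ppbp, the precursor of the platelet chemokine neutrophil-activating peptide 2, ran from 7.21 through a median of 7.62 to 7.90 on non-pregnant arrays and from 8.04 through a median of 8.95 to 9.17 on pregnant arrays. The Ppbp ranges lay apart, and the rise was 2.36-fold (1.24 ± 0.16 log2, limma adjusted p = 0.000402).

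Surface receptors of platelets followed. Clec1b, the podoplanin receptor CLEC-2, ran from 6.97 through a median of 7.32 to 7.58 without pregnancy and from 8.08 through a median of 8.26 to 8.40 with it, a narrow range in pregnant mice that lay above all others (0.96 ± 0.09, limma adjusted p = 5.31e-05). Gp9, a chain of the receptor for von Willebrand factor, ran from 4.27 through a median of 5.60 to 5.84 and from 6.09 through a median of 6.44 to 6.97 and also separated the arrays (1.05 ± 0.19, adjusted p = 0.00391). Gp9 passed the expression filter through its pregnant arrays alone, which limits what its separation shows. Inside the platelet, Tubb1, the tubulin of the marginal band, rose by 0.82 ± 0.10, Alox12, the 12-lipoxygenase, by 0.76 ± 0.09, and Plek, the kinase substrate pleckstrin, by 0.71 ± 0.09. Coagulation factors carried by platelets rose too: F13a1, the fibrin crosslinking enzyme, by 0.78 ± 0.11 and F5 by 0.53 ± 0.12, the 2 called among 19 genes of coagulation. Of the 10 members that did not pass, Rap1b, a small GTPase, was at 0.01 ± 0.04, Gng11, a G protein subunit, at −0.19 ± 0.07, and Treml1, a receptor of platelet granules, at 0.49 ± 0.15. Red cell genes held fewer calls, since 1 of 14 measured rose, the anion exchanger Slc4a1 (0.67 ± 0.15, adjusted p = 0.0153), where 3.07% of all genes rose. Without those 5 arrays 15 of the 27 platelet genes rose, with 18S as a covariate 10, and with the conflicting array counted as pregnant 3.

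Promoters of Ppbp and Gp9 are printed since GATA and ETS factors are the known regulators of megakaryocyte genes. Capitals mark GATAA and GGAAG on either strand (TTATC and CTTCC where the match is on the other). The Ppbp stretch is chr5:90768268-90768517 on the plus strand, with 0 and 2 matches, and the Gp9 stretch is chr6:87777820-87778069 on the plus strand, with 1 and 2.
Ppbp: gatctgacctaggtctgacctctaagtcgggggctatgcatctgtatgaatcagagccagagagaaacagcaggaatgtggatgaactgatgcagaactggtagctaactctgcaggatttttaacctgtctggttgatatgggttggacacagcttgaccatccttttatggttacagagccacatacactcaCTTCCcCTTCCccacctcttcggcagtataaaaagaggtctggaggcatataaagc
Gp9: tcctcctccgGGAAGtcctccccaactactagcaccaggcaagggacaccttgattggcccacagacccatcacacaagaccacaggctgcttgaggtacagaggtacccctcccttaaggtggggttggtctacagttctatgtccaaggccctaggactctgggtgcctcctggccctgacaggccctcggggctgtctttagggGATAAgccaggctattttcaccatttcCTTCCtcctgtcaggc
No marked match overlaps another. GATAA was found in 23% of all promoters, in 14.5% of those of the genes tested and in 20.7% of the 304 found for all genes that rose. It was in 6 of the 15 found for platelet genes that rose and in 4 of the 7 found for neutrophil granule genes that rose. GGAAG, a frequent string, was in 63.6%, 68.1% and 72.4% of the same sets, in 13 of the 15 and in 6 of the 7. These counts describe 250 bases before the start and nothing beyond.

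Antibody genes were among the largest single rises. Igha, the constant region of immunoglobulin A, ran from 9.93 through a median of 10.16 to 10.54 on non-pregnant arrays and from 10.96 through a median of 11.87 to 12.11 on pregnant arrays. No pregnant array reached down to the non-pregnant range, and the rise was 2.76-fold (1.47 ± 0.16 log2, limma adjusted p = 0.00012). Jchain, which joins IgA and IgM into polymers, ran from 8.17 through a median of 9.11 to 9.51 and from 9.76 through a median of 10.18 to 10.62 and separated the arrays as well (1.21 ± 0.19, limma adjusted p = 0.00161). The Jchain difference was 0.73 after PBS and 1.69 after TiO2, and the interaction of the 2 had an unadjusted p of 0.0062 and an adjusted p of 0.358. With 18S as a covariate Jchain no longer passed (1.12, limma adjusted p = 0.072). Mzb1, a chaperone of antibody folding in marginal zone B and plasma cells, rose by 0.79 ± 0.11, and a kappa light chain variable gene that separated the arrays by 1.28 ± 0.20. This kappa gene passed the expression filter through its pregnant arrays, which limits what its separation shows. Variable genes resemble each other, so such a probe set may read several.

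B cell genes beyond antibody itself were less even. Of 23 measured B and plasma cell genes 6 rose and 0 fell, and the median of the list was 0.54, at 0.24 after PBS and 0.68 after TiO2. Over all genes 3.07% rose. Cr2, complement receptor 2 of mature B cells, ran from 5.53 through a median of 6.19 to 6.93 and from 6.35 through a median of 6.92 to 7.37, with overlap (0.73 ± 0.16, adjusted p = 0.0162). Xbp1 and Sdc1, a factor and a surface proteoglycan of plasma cells, did not pass, at −0.05 ± 0.06 and −0.02 ± 0.07. Pigr, the epithelial carrier of IgA across the airway wall, rose by 0.50 ± 0.10. Lymph node venule and fat transcripts moved beside the list, with 20 of 24 fat genes positive (median 0.31), though 0 were called. Glycam1 had a median of 8.94 on non-pregnant and 10.59 on pregnant arrays, and the summed signal of the fat genes ran from 26390 to 54320 and from 28970 to 56690 intensity units. With Glycam1 as a covariate 3 of the 23 B cell genes rose (median 0.43), and without the 3 arrays low in it 3 rose (median 0.36). Igha was at 1.49 and 1.46 in these fits, Jchain at 0.95 and 1.04, and both passed.

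Monocyte and macrophage genes rose in part. Of 22 measured monocyte genes 7 rose and 0 fell (median 0.24), where 3.07% of all genes rose. Treml4, a receptor of the patrolling monocyte class, ran from 4.86 through a median of 5.31 to 6.42 and from 5.96 through a median of 6.55 to 6.84, with overlap (1.06 ± 0.19). It passed the expression filter through its pregnant arrays. Ms4a4c, an interferon-inducible membrane protein of monocytes, rose by 0.89 ± 0.15, and Plac8 by 0.67 ± 0.13. Lyz1, a lysozyme, and Ace, the angiotensin-converting enzyme, did not pass, at 0.04 ± 0.04 and 0.06 ± 0.06. Of 22 alveolar macrophage genes 7 rose and 0 fell (median 0.20), including Cd68, a lysosomal marker (0.51 ± 0.08, no overlap), and Gpnmb (0.35 ± 0.07).

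The scavenger receptor Marco was higher in pregnant lungs by 1.47 ± 0.28 log2 (limma adjusted p = 0.00635), a size that depends on the added constant, being 2.97 with 1 and 0.65 with 64 in place of 16. Non-pregnant arrays ran from 4.13 through a median of 4.23 to 6.55, and pregnant arrays from 6.02 through a median of 6.15 to 6.40. Marco passed the expression filter through its pregnant arrays. The non-pregnant median lies close to the lowest level of the scale, since log2 of the added 16 is 4, and non-pregnant PBS replicate 1, at 6.55, lay above every pregnant array. Marco no longer passed when the 5 arrays were set aside (1.23, limma adjusted p = 0.061). Of 18 genes of interstitial macrophages 4 rose and 0 fell, with Ccl9, a chemokine of myeloid cells, at 0.72 ± 0.08 with no overlap, C1qc, a chain of the first complement component, at 0.33 ± 0.08, Pf4 at 0.40 ± 0.09 and Ccl6 at 0.28 ± 0.07. Ccl6 lost its call in 22 of 38 alternatives. The dendritic cell list had 1 call among 19, the factor Irf8 (0.37 ± 0.08, with its other kept probe set at 0.09), where 4.21% of all genes were called.

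Some transcripts of acute-phase and complement proteins rose in the lung. Of 17 acute-phase genes 7 rose and 0 fell (median 0.40), where 3.07% of all genes rose and 1.14% fell. Lrg1, a leucine-rich glycoprotein that liver and neutrophils secrete, ran from 8.91 through a median of 9.20 to 9.56 on non-pregnant and from 9.96 through a median of 10.21 to 10.78 on pregnant arrays. Its groups were a clear step apart, with a rise of 2.07-fold (1.05 ± 0.11 log2, limma adjusted p = 8.40e-05). Serpina3n, an antiprotease, ran from 7.32 through a median of 8.35 to 8.54 and from 8.77 through a median of 8.88 to 9.14 without overlap (0.67 ± 0.13), and Lcn2, the siderophore-binding lipocalin, rose by 0.67 ± 0.13 with overlap. Of 21 complement genes 7 rose and 1 fell (median 0.29), with clusterin, Clu (0.49 ± 0.08, no overlap), and factor B, Cfb (0.48 ± 0.11), among the rises. With values as deposited 1 complement gene was called higher, and with 18S as a covariate 0.

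Interferon and cytokine lists held called genes in both directions. Of 39 interferon-stimulated genes 5 rose and 1 fell, and the median was 0.09, where 4.21% of all genes were called either way. Rsad2, the antiviral enzyme viperin, ran from 7.91 through a median of 8.64 to 8.96 and from 8.97 through a median of 9.29 to 9.58 without overlap (0.76 ± 0.15, adjusted p = 0.00784), Irf7 rose by 0.53 ± 0.12 and Oasl1 by 0.41 ± 0.09, while Ifit3 fell (−0.34 ± 0.08). Of 34 measured cytokine and chemokine genes 6 rose and 1 fell (median 0.18), and Csf1, the macrophage growth factor, rose by 0.38 ± 0.07.

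**Figure D3:**
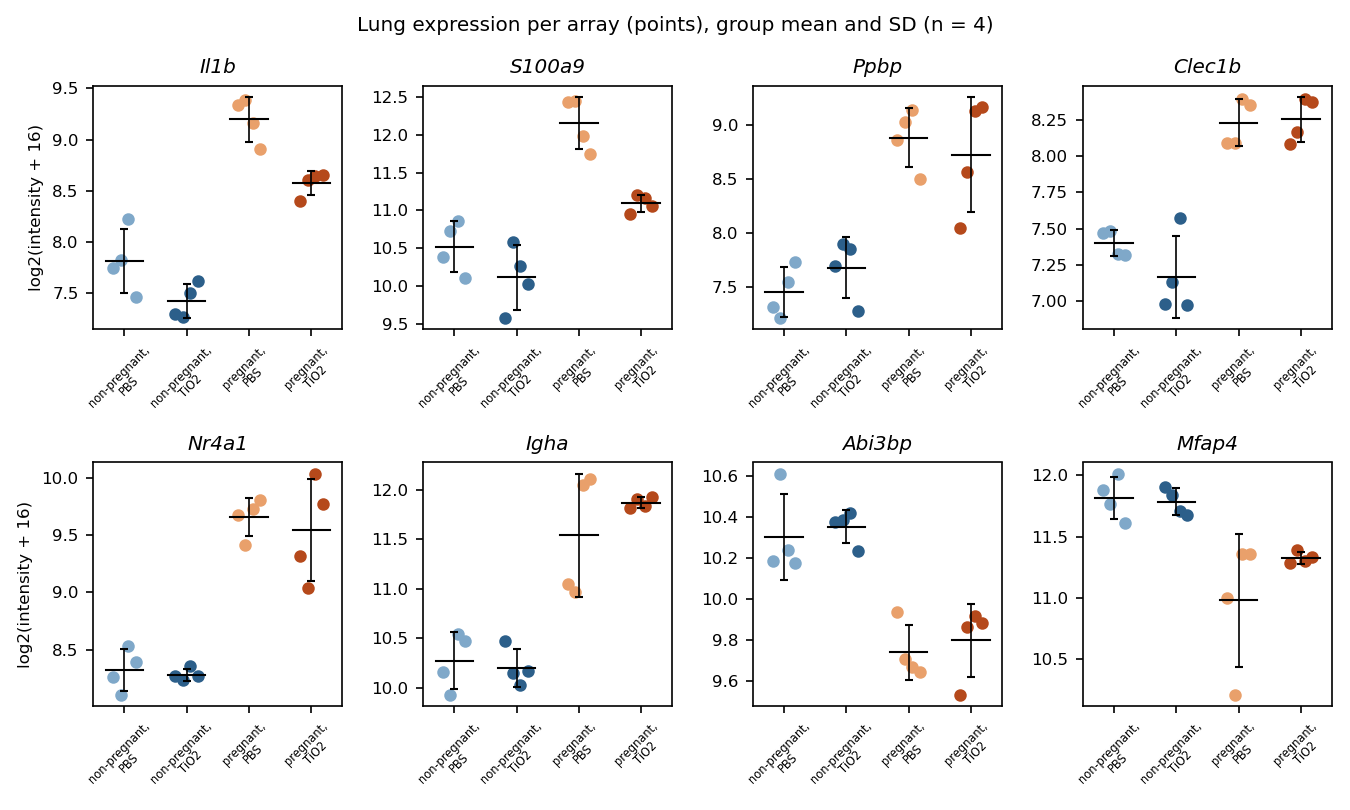
Log2 level of 8 genes on each array, by group, with group mean and SD (n = 4). Il1b, S100a9, Ppbp, Clec1b, Nr4a1 and Igha are higher and Abi3bp and Mfap4 lower on all 8 pregnant arrays, and for Mfap4 pregnant PBS replicate 2 lies far below its group.

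A part of the immediate-early genes rose in pregnant lungs. Such genes are transcribed within minutes of a stimulus, before any new protein is made. Of 28 such genes 9 rose and 0 fell (median 0.25), where 3.07% of all genes rose. Nr4a1, an orphan nuclear receptor that also marks patrolling monocytes, ran from 8.11 through a median of 8.27 to 8.53 on non-pregnant arrays and from 9.04 through a median of 9.70 to 10.04 on pregnant arrays. The gap between the groups was 0.51 log2 at its narrowest, and the rise of 2.46-fold was nearly equal after PBS (1.33) and after TiO2 (1.26; overall 1.30 ± 0.12, limma adjusted p = 2.23e-05). Ccn1, a secreted matricellular protein, ran from 9.25 through a median of 9.50 to 9.87 and from 10.04 through a median of 10.26 to 10.80 and separated the arrays (0.83 ± 0.12). Ier3, a stress-response gene, rose by 0.62 ± 0.08 and the AP-1 subunit Junb by 0.46 ± 0.07, both without overlap. With 18S as a covariate 4 of the 28 passed, Ccn1 not among them (0.66, adjusted p = 0.090).

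The Nr4a1 promoter is shown because the gene is a textbook target of the factor CREB, whose element contains the string CGTCA, marked in capitals on either strand. The stretch is chr15:101266596-101266845 on the plus strand, with 4 matches, none of which overlap.
Nr4a1: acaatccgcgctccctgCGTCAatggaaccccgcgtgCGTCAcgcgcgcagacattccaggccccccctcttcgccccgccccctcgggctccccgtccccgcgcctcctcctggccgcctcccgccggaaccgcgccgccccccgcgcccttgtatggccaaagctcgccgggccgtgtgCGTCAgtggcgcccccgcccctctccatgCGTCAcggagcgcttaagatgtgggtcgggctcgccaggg
CGTCA was found in 17.9% of all 27025 promoters, in 26.5% of those of the genes tested, in 5 of the 7 found for immediate-early genes that rose and in 19.1% of the 304 found for all genes that rose.

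Glucose use and airway secretion also held genes that separated the arrays or rose. Slc2a3, the high-affinity glucose transporter of leukocytes and platelets, ran from 7.93 through a median of 8.19 to 8.58 and from 8.72 through a median of 9.10 to 9.52, and no values overlapped (0.90 ± 0.09, limma adjusted p = 8.40e-05). Of 31 genes of hypoxia and glycolysis it was the only rise, and 3 fell, among them Pfkfb3, which sets the level of a glycolytic activator (−0.34 ± 0.08, no overlap), and P4ha1, a collagen prolyl hydroxylase (−0.32 ± 0.07). Of 24 club and goblet cell genes 5 rose and 0 fell (median 0.18), where 3.07% of all genes rose and 1.14% fell. The mucin Muc5b was at 0.61 ± 0.13, the mucin-folding protein Agr2 at 0.50 ± 0.13 (a call lost in 28 alternatives) and Ltf, lactoferrin of airway glands and neutrophils, at 0.75 ± 0.15. The most abundant airway genes did not pass, with Scgb1a1 at 0.02 ± 0.04 and Cbr2 at −0.02 ± 0.04. Wfdc17, a secreted inhibitor of activated macrophages and neutrophils, ran from 7.36 through a median of 7.79 to 8.12 and from 8.48 through a median of 8.67 to 9.58 without overlap (1.10 ± 0.14, limma adjusted p = 0.000262).

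A few cilium genes rose by small steps. Of 26 ciliated cell genes 4 rose, 0 fell and 25 had a positive difference (median 0.22). Over all genes 3.07% rose and 53.9% of differences were positive. Cfap52 and Ak7, components of the motile axoneme, rose by 0.38 ± 0.08 and 0.32 ± 0.07 without overlap, Cfap126 by 0.49 ± 0.11 and the dynein chain Dnaic1 by 0.31 ± 0.08. Tubb4b and Tppp3, the brightest members, were at 0.11 ± 0.08 and 0.05 ± 0.08. These calls were fragile, since 0 of the 26 passed with values as deposited, with 18S as a covariate, or when the 5 arrays were set aside.

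Connective tissue genes held the most falls of any list. Of 51 genes of fibroblasts and matrix 6 fell and 3 rose (median −0.13), where 1.14% of all genes fell. Mfap4, a microfibril protein of elastic fibres, ran from 11.61 through a median of 11.80 to 12.01 on non-pregnant arrays and from 10.21 through a median of 11.32 to 11.39 on pregnant arrays. All pregnant values were lower, with pregnant PBS replicate 2 far below the rest (−0.64 ± 0.14, limma adjusted p = 0.0131). Mfap4 no longer passed with values as deposited, with 18S as a covariate or when the 5 arrays were set aside. Abi3bp, a matrix protein that binds integrins, ran from 10.18 through a median of 10.31 to 10.61 and from 9.53 through a median of 9.79 to 9.93, also apart, and its fall was alike after PBS (−0.57) and TiO2 (−0.56; limma adjusted p = 0.0007). Npnt, nephronectin of basement membranes, fell (−0.37 ± 0.06), and with it its integrin partner Itga8 of the smooth muscle list (−0.29 ± 0.06), both without overlap. The matrix list genes that rose were Ccn1, given above, Mmp9, a gelatinase of neutrophil granules (0.52 ± 0.09), and Tcf21, a transcription factor of lung mesenchyme (0.30 ± 0.07). With values as deposited 0 matrix genes were called lower, and with 18S as a covariate 1.

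Other separating falls were spread over unrelated functions. Pid1, an adaptor that dampens insulin signalling, ran from 9.96 through a median of 10.10 to 10.21 and from 9.52 through a median of 9.58 to 9.78 and had the smallest adjusted p of the falls named (−0.48 ± 0.06, limma adjusted p = 0.000211). The neural adhesion protein Cntn4 ran from 5.95 through a median of 6.07 to 6.46 and from 5.23 through a median of 5.51 to 5.77, and Retreg3, a receptor for turnover of endoplasmic reticulum, ran from 8.35 through a median of 8.53 to 8.75 and from 7.58 through a median of 8.05 to 8.19. For each of them the pregnant arrays lay below all others. The Cntn4 difference was −0.86 after PBS and −0.31 after TiO2, with an unadjusted interaction p of 0.00089 and an adjusted one of 0.232. Cntn4 passed the expression filter through its non-pregnant arrays alone, which limits what its separation shows. The guidance ligand Slit2 fell (−0.39 ± 0.08), with its 3 kept probe sets between −0.39 and −0.06. So did the matrix protein Ecm2 (−0.45 ± 0.08), the DNA polymerase alpha subunit Pola1 (−0.43 ± 0.06), the non-muscle myosin Myh10 (−0.34 ± 0.05), Pgm5, an adhesion plaque protein of muscle (−0.36 ± 0.06), the adaptor Sh3d19 (−0.36 ± 0.08) and Plxdc2 (−0.33 ± 0.07). For Nudt6 (−0.38 ± 0.08) the 2 kept probe sets differed in sign, so its direction rests on the brighter one.

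The largest fall among the called genes was that of Ddit4, an inhibitor of the growth kinase mTOR that glucocorticoids and low oxygen induce. It ran from 9.19 through a median of 10.13 to 10.76 on non-pregnant arrays and from 7.69 through a median of 8.96 to 9.43 on pregnant arrays. The ranges met, with the highest pregnant value above the lowest non-pregnant one (−1.26 ± 0.24 log2, limma adjusted p = 0.00778). Over all genes 1.14% fell and 3.07% rose. Of 26 glucocorticoid-responsive genes 3 fell and 2 rose (median −0.17). Beside Ddit4 these were Errfi1, an inhibitor of the epidermal growth factor receptor (−0.70 ± 0.16), and Nfkbia, while Mt1, a metallothionein, and Lcn2 rose (0.51 ± 0.10 and 0.67 ± 0.13). Leaving out the conflicting array gave 2 in each direction, and counting it as pregnant 0. Of 35 heat-shock and endoplasmic reticulum stress genes 4 fell and 0 rose (median −0.11), and with values as deposited 0 of the 4 passed. They were the chaperones Hsph1 (−0.61 ± 0.13), Dnaja1 (−0.35 ± 0.09) and Hspa8 (−0.20 ± 0.06), and Herpud1 (−0.24 ± 0.07). Of 38 alternatives Dnaja1 lost its call in 18, Hspa8 in 28 and Herpud1 in 26, and 3 of the 4 kept probe sets of Hspa8 fell.

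Among hormone-related lists single genes were called, where 4.21% of all genes were. Of 15 measured receptors for relaxin, steroids, prolactin and related hormones 1 fell, the leptin receptor Lepr (−0.39 ± 0.10, adjusted p = 0.0286), a call lost in 17 of 38 alternatives, and 0 rose. Among 23 genes known as estrogen or progesterone targets 1 rose (Ltf) and 2 fell, Errfi1 and Cited2 (−0.27 ± 0.07), and Cited2 lost its call in 27 of 38 alternatives. Of 17 targets of growth hormone, prolactin and STAT5 the antiprotease Serpina3n rose and the repressor Bcl6 fell (−0.49 ± 0.10, adjusted p = 0.00875). Of 30 trophoblast and placenta genes 5 passed the filter and 0 were called, the brightest being the keratins Krt8 (0.18 ± 0.06) and Krt18 (0.15 ± 0.08), which lung epithelium makes as well. The vessel list had 4 rises among 44 genes, Cyp1a1, Pgf, Slc6a4 and Eng. Slc6a4, the serotonin transporter, separated the arrays (0.39 ± 0.07), and the placental growth factor Pgf rose by 0.66 ± 0.16. Cyp1a1, the detoxifying oxidase, differed by 0.22 after PBS and by 1.39 after TiO2, with an unadjusted interaction p of 0.00066 and an adjusted p of 0.232.

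**Figure D4:**
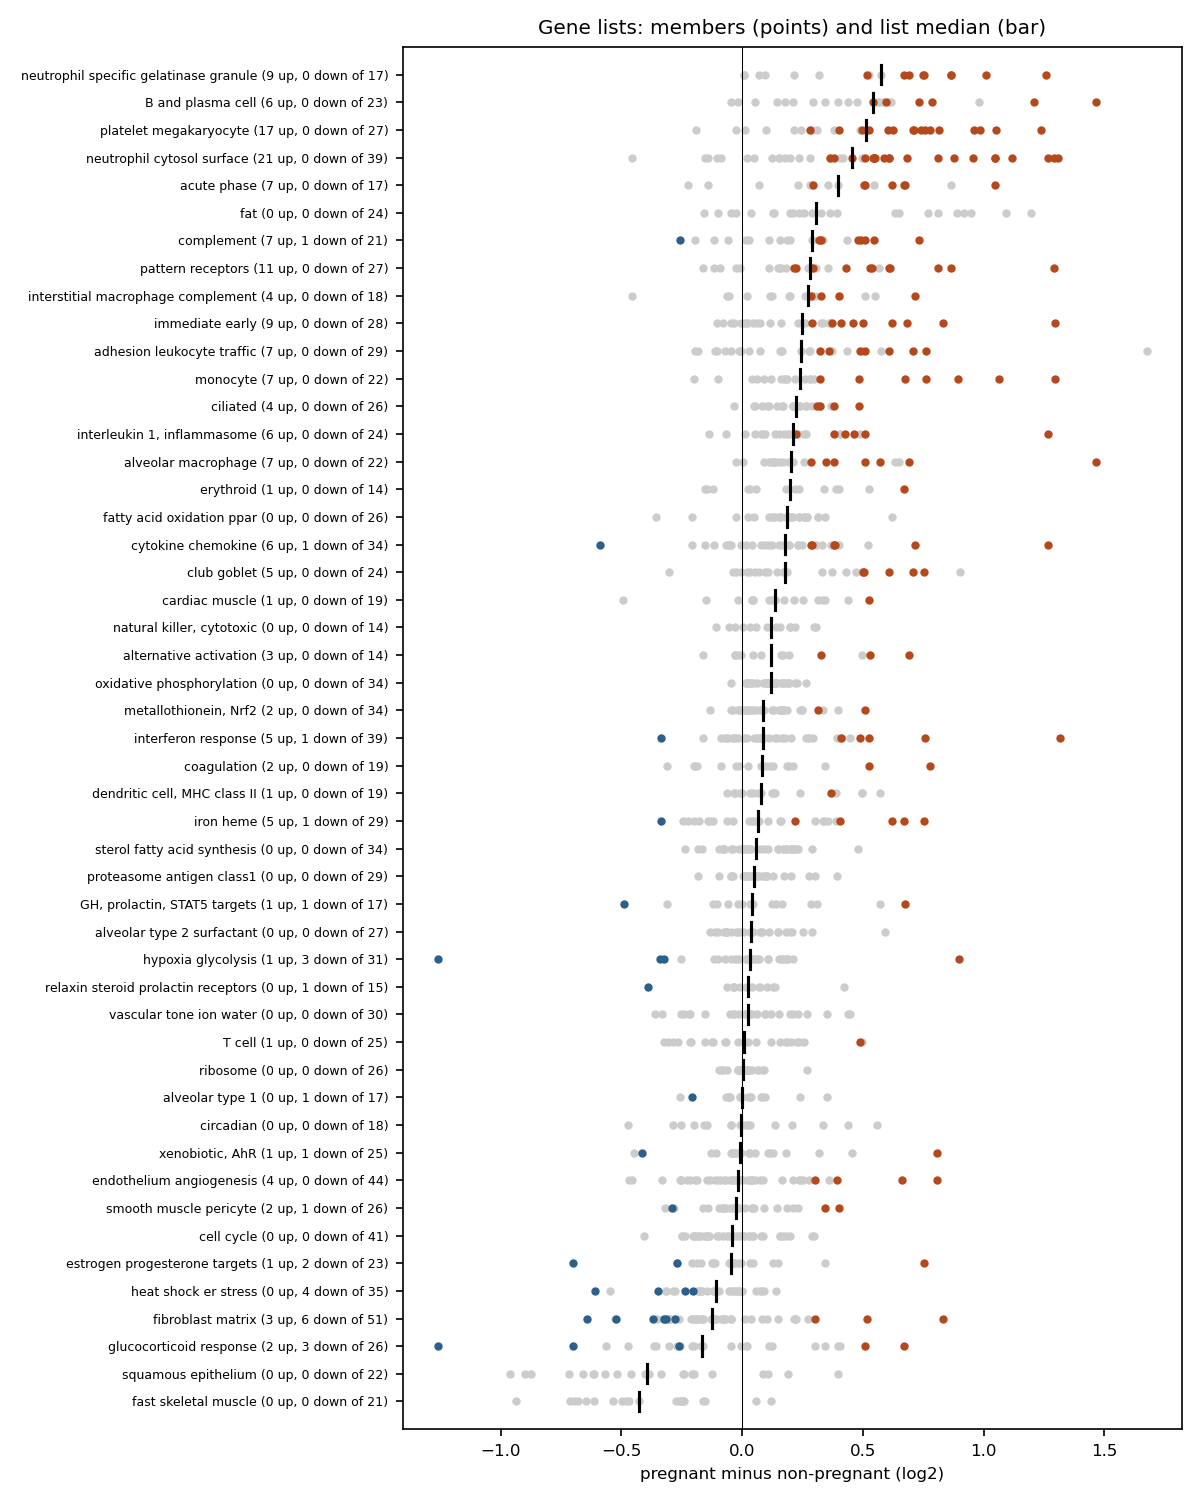
Difference between pregnant and non-pregnant lungs (log2) for the members of each gene list with at least 10 measured genes, with called genes in orange (higher) or blue (lower), the others in grey and the list median as a bar. Neutrophil, B and plasma cell, platelet and acute-phase lists lie furthest right, and matrix, glucocorticoid, squamous and fast muscle lists lie left of 0.

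Markers of tissue that a dissected lung may carry varied between arrays and gave almost no calls. Of 24 fat, 5 lymph node venule, 5 thymus, 22 squamous and 21 fast muscle genes measured, 0 were called, where 4.21% of all genes were. The squamous and fast muscle medians, −0.39 and −0.43, turned to 0.15 and 0.17 when pregnant TiO2 replicate 2 and the pair with high Prss16 were set aside. Cardiac muscle, which lung veins carry in mice, had 1 call in 19, Casq2 (0.53 ± 0.13), which lost the call in 17 of 38 alternatives. Of 25 T cell genes 1 rose, Icos (0.49 ± 0.11, with its other kept probe set at 0.08), and of 14 natural killer genes 0. The T cell list went opposite ways, with 4 of 25 positive after PBS (median −0.42) and 23 after TiO2 (median 0.40). Its mean log2 level was 8.20 and 8.26 on the pair with high Prss16, against 6.62 to 7.29 elsewhere. With that pair and pregnant TiO2 replicate 2 set aside, the T cell median was 0.33. Mast cell, basophil and eosinophil genes had 7 of 22 over the filter and 1 call, Hdc (0.36 ± 0.08), an enzyme that neutrophils also express.

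Lists without a called gene in the additive fit included alveolar type 2 and surfactant genes (0 of 27), the cell cycle (0 of 41), the circadian clock (0 of 18), ribosomal proteins (0 of 26), oxidative phosphorylation (0 of 34), the proteasome and class 1 presentation (0 of 29), sterol and fatty acid synthesis (0 of 34), fatty acid oxidation (0 of 26) and vascular tone, ion and water transport (0 of 30). Over all genes 4.21% were called, so lists of this size would hold few calls at that share. Sftpc was at −0.02 ± 0.05 log2 and Sftpa1 at 0.03 ± 0.05. The oxidative phosphorylation list had 33 of 34 positive differences (median 0.12), 19 of 34 after PBS and 34 of 34 after TiO2.

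The cell cycle list went opposite ways, with 1 of 41 genes positive after PBS (median −0.36) and 37 of 41 after TiO2 (median 0.25). On the pair of non-pregnant PBS arrays with thymic transcripts its mean log2 level was 7.84 (replicate 3) and 7.98 (replicate 4), against 6.99 to 7.52 on the other 14. With these 2 arrays and pregnant TiO2 replicate 2 set aside, 6 of the 41 rose and 0 fell (median 0.17). Of alveolar type 1 genes 1 of 17 fell, the tight junction protein Cldn18 (−0.21 ± 0.05, adjusted p = 0.0413), a call lost in 25 of 38 alternatives.

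The pregnancy difference was then read within each exposure, in a fit of 4 group means. These 2 contrasts share no sample, but the fit takes 1 estimate of spread from all 16 arrays, so the 2 lists of calls are not independent. Fits of 1 exposure by itself called 49 genes (PBS) and 483 (TiO2). After PBS 129 genes (1.04%) were called, 100 higher (0.808%) and 29 lower (0.234%), and after TiO2 233 (1.88%), 170 higher (1.37%) and 63 lower (0.509%). Both contrasts called 37 genes, 28.7% of the first list and 15.9% of the second, with 35 higher and 2 lower, Pid1 and Abi3bp. Of all genes 1.57% were called after TiO2 with the same sign after PBS, and 0.938% the other way round. The 37 include Il1b, S100a9, Cd177, Nr4a1, Igha, Ppbp, Clec1b, Tubb1, Alox12, Lrg1 and Slc2a3. Of the 129 genes called after PBS 116 (89.9%) had the same sign after TiO2, and of the 233 called after TiO2 194 (83.3%) had the same sign after PBS, against 55.8% over all genes. Across genes, which are not independent replicates, the differences after PBS and after TiO2 correlated with r = 0.25 (Pearson) and rho = 0.19 (Spearman).

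The additive fit added 300 calls that neither exposure gave alone, and all 521 of its genes had the same sign after both. Calling on the average of both exposures favours such genes, so this is not separate evidence. The size of the difference still varied with exposure for single genes. S100a9 differed by 1.64 after PBS and by 0.98 after TiO2 (interaction in limma, adjusted p = 0.443), and Pglyrp1 the other way, by 0.57 and 1.16 (adjusted p = 0.405). None of these differences between exposures passed limma's adjustment: 0 of 12369 genes were called for the interaction, 1352 (10.9%) had an unadjusted p under 0.05, and the lowest adjusted p was 0.232. Of the 521 genes 63 had an unadjusted interaction p under 0.05. The single-exposure counts rested on few arrays, from 71 (without pregnant PBS replicate 1) to 219 (without non-pregnant PBS replicate 3) after PBS and from 52 (without non-pregnant TiO2 replicate 1 or pregnant TiO2 replicate 1) to 382 (without non-pregnant PBS replicate 3) after TiO2.

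**Figure D5:**
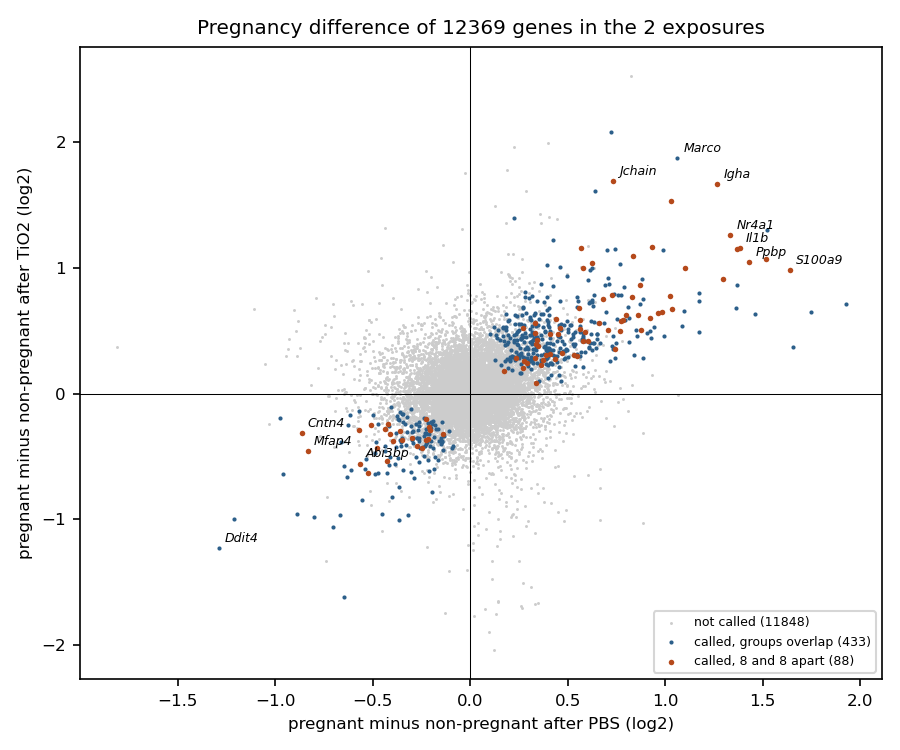
Pregnant minus non-pregnant difference (log2) of 12369 genes after PBS (horizontal) and after TiO2 (vertical), with the 433 called genes whose groups overlap in blue and the 88 whose arrays lie apart in orange. Every called gene has the same sign on both axes, which calling on the average of both exposures favours. Jchain (0.73 and 1.69) and Cntn4 (−0.86 and −0.31) are examples of unequal size.

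Where a gene had several probe sets the brightest stood for it. Of 187 called genes with more than 1 kept probe set 166 had the same sign in all, and of 23 such genes that separated the arrays 22 did.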

How the data were processed

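Total lung RNA of 16 samples was read on 1-colour Affymetrix arrays of 45101 probe sets. The deposited values are linear intensities, 1 per probe set, with array medians that differ, so no scaling between arrays was evident. The submitters' processing notes name GCOS, MAS5 and RMA, without versions or roles; which of them made the values is not given in the sources used here. Here 64 control probe sets were left out, the intensities were quantile normalized and log2(value + 16) was taken. Probe sets above the array median on at least 4 of 16 arrays were kept (23995). The platform annotation names genes (21248 kept probe sets had 1 symbol), and the brightest probe set stood for each of 12369 genes; 34754 of 34958 symbols were matched through Entrez IDs to RefSeq.

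limma 3.58.1 in R 4.3.3 fitted pregnancy and exposure (13 residual degrees of freedom), or 4 group means (12) for each exposure and the interaction, with Benjamini-Hochberg adjustment over all genes at 0.05. Every adjusted p in the text comes from limma; the code was tested on simulated data. Genes were named by rule, other genes after their values were seen. The rule took the 15 largest separating changes each way and up to 4 called members of each list with the smallest p. For lists of cell or tissue markers it also took up to 2 of the brightest members. The comparison and the lists were chosen with earlier results of these data known. The number of arrays limits the precision. Alternatives changed scaling, filter, added constant, probe set rule, fit, covariates and arrays used.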

Additional observations from a re-analysis of the deposited data

Results flagged for a closer look

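Values of named genes were examined for single arrays far from the 7 others of their pregnancy state, over 220 groups of 8 arrays, at the 95% level of Dixon's gap ratio. Chance marks about 1 in 20 groups, and 19 were marked here. No explanation was weighed for any of them.

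Non-pregnant PBS replicate 3, an array with thymic transcripts, had 6 of the 19. In it Ms4a4c (8.265 log2) and Serpina3n (7.324), which rose in pregnancy, and Lepr (9.049), Errfi1 (10.33), Cited2 (10.34) and Hsph1 (8.836), which fell, stood apart from the other non-pregnant arrays. Non-pregnant PBS replicate 2, whose labels conflict, had 3, namely the matrix gene Npnt (12.54), the repressor Bcl6 (7.935) and the protease Casp1 (5.993). Pregnant PBS replicate 2 had 3 as well, with Mfap4 (10.21), Sh3d19 (10.01) and Ddit4 (7.695), genes that fell in pregnancy.

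The other 7 were spread over 5 arrays. The platelet gene Gp9 was at 6.973 in pregnant PBS replicate 3. In non-pregnant PBS replicate 4 Pola1 was at 7.502 and the cilium gene Cfap52 at 6.085. Pregnant TiO2 replicate 1 had Slit2 at 9.017 and pleckstrin (Plek) at 9.211. The chemokine Ccl9 was at 9.194 in non-pregnant TiO2 replicate 2, and the chaperone Hspa8 at 12.47 in pregnant TiO2 replicate 2.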

How the results depend on the processing

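Counts are genes called, with higher and lower, then those that separate the arrays and are called, then those called after PBS, after TiO2 and for the interaction, where they moved by over 1.5 times from 521, 380, 141, 88, 129, 233 and 0. Values as deposited gave 91, 81, 10, 12, 38 after PBS and 21 after TiO2, and the cause was not tested. No filter gave 87 lower, 141 after TiO2 and 1 for the interaction. PBS samples only gave 49, 45 and 4 with 49 separating, and TiO2 samples only 482 separating; both have fewer samples. Array weights gave 1110, 714 and 396. The most variable probe set gave 92 lower, 80 after PBS and 118 after TiO2. Without the array of conflicting labels 2 were called for the interaction; as pregnant PBS it gave 95, 77, 18, 19, 7 after PBS and 104 after TiO2. Without 3 arrays of unlike tissue content there were 1008, 690, 318, 351, 295, 428 and 4. The 18S covariate gave 92, 78, 14 and 42. Alternatives added after seeing the data gave 289, 229 and 60 with Glycam1 as a covariate, 231, 178, 53 and 5 after TiO2 without 3 arrays of low Glycam1, and without 5 arrays 375 separating, 208 after PBS, 32 after TiO2 and 1 for the interaction; there Ckm, at −0.26 with all arrays, turned to 0.4064 (limma adjusted p = 0.04996). Leaving out 1 array gave 352 to 867, 271 to 606 higher, 77 to 261 lower, 87 to 218 separating, 71 to 219 after PBS, 52 to 382 after TiO2 and 0 to 2 for the interaction, with all upper ends but the last without non-pregnant PBS replicate 3. Other single arrays that moved a count by over 1.5 times were, for genes lower, non-pregnant TiO2 replicates 1 (81), 2 (81) and 3 (77), pregnant TiO2 replicates 3 (84) and 4 (89) and pregnant PBS replicate 4 (88). For genes called after PBS they were pregnant PBS replicates 1 (71) and 2 (78). For genes called after TiO2 they were non-pregnant TiO2 replicates 1 (52), 2 (97), 3 (57) and 4 (113) and pregnant TiO2 replicates 1 (52), 3 (118) and 4 (69). The 521 genes kept their direction in each alternative except the most variable probe set (515 of 521) and the filter on 8 arrays, which tested 509 of them, all in the same direction. No paired analysis was possible because replicate numbers follow accession order only.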

Other observations

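Gene families picked by symbol after the values had been seen showed further members of the same kinds. Over all genes 3.07% rose and 1.14% fell. Of 10 immunoglobulin chain genes 8 rose and 0 fell, with a median of 0.97 log2, at 0.71 after PBS and 1.38 after TiO2. Of 18 Cfap genes, which build motile cilia, 7 rose, 0 fell and 17 had a positive difference (median 0.31). Of 5 schlafen genes, a family of interferon-inducible regulators of immune cells, 3 rose (Slfn1, Slfn4 and Slfn8), and of 9 Ms4a membrane proteins 3 rose. Integrins were divided, with 5 of 26 higher and 2 lower. Families chosen in this way carry no test.

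Of 2747 kept probe sets without a single gene symbol, 58 were called in a fit of their own, 35 of them higher in pregnant lungs.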
